A study of Homo sapiens with 6 samples.

Results

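The genes described here build and regulate the contractile actin cytoskeleton, and several of them are the usual markers of smooth muscle. They were 10 genes, ACTA2, ACTG2, TAGLN, CNN1, MYL9, TPM1, TPM2, CALD1, MYH9 and MYH11, taken by gene symbol from a table of 19899 genes. RNA-seq had been performed in COV434 cells, a long-established line of ovarian origin, which the study treats as a model of SCCOHT, the hypercalcemic type of small cell ovarian carcinoma. This cancer lacks the SWI/SNF chromatin remodeling ATPase BRG1, encoded by SMARCA4. The cells received either the control vector pCDNA3-neo (Control, n = 3) or the BRG1 plasmid PBJ5-BRG1 (BRG1, n = 3). Both groups also received pBABE-puro, were placed on 2 to 3 µg/ml puromycin after 24 hours and were harvested 3 days later. The samples are therefore pools of transiently transfected cells of 1 line, and neither plasmid was compared with untransfected cells. The labels call the samples biological replicates and number them 1 to 3 in each group.

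In contractile cells, myosin II filaments pull on actin filaments that are decorated with tropomyosin. ACTA2 and ACTG2 encode the 2 smooth muscle actins, whereas ACTB and ACTG1 encode the cytoplasmic actins of all cells. TAGLN (transgelin), CNN1 (calponin 1) and CALD1 (caldesmon) bind actin filaments, and TPM1 and TPM2 are tropomyosins. MYH11 is the smooth muscle myosin heavy chain and MYH9 the heavy chain of non-muscle myosin IIA. MYL9 is a regulatory light chain, which myosin light chain kinase (MYLK) phosphorylates to start contraction. Many of these genes are textbook targets of serum response factor (SRF), which binds the CArG box together with the cofactors myocardin (MYOCD) and MRTFA or MRTFB.

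The depth and the identity of the samples were checked first. Totals ran from 29699741 estimated counts in BRG1 sample 3 to 63613710 in BRG1 sample 1, and normalised counts are those counts divided by a size factor per sample. SMARCA4 stood at 1439 to 1676 normalised counts in Control and 78589 to 108655 in BRG1 samples, where transcripts of the plasmid are included (log2 fold change 5.84, SE 0.18). The second SWI/SNF ATPase gene, SMARCA2, which SCCOHT does not express as a rule, stood at 3.79 to 35.7 normalised counts in all 6 samples. Samples with the same replicate number deviated together from their group means, so results are given both without and with the replicate number as a block wherever the block changed a call.

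The upstream sequences of the genes are shown because 8 of the 10 genes had a higher fitted level with BRG1 and because SRF is a textbook regulator that many of them share. RefSeq promoters (build GRCh38.p14) were matched to 7 of the 10 genes, with 12 start sites. TAGLN, MYL9 and MYH11 had no entry. The 250 bases before the start were searched on both strands for the CArG box (10 letters), for the AP-1 site TGANTCA and for the MCAT site CATTCC, none of which overlapped another in these windows. Each motif had to match in all its letters, and near matches were not counted. ACTG2 was the 1 gene whose window held a full CArG match (CC, then only A or T, then GG). Its matches lay at -110 to -101 and at -73 to -64 from the start, and 1.16% of all 35116 promoters held a full match. The ACTA2 window below holds ccctatatgg and ccttgtttgg, which each differ from that pattern in 1 letter. Near matches were not searched for in the other windows. The MCAT site was found at -183 to -178 of ACTA2, -70 to -65 of MYH9 and at 2 starts of CALD1, against 11.9% of all promoters. The AP-1 site was found at 1 start of CALD1, against 6.57% of all promoters. The sequences below run 5′ to 3′ on the strand of the gene, with the matches in capitals. They are ACTG2 for its CArG boxes, ACTA2 and MYH9 for their MCAT sites, written GGAATG because they lie on the opposite strand, and TPM1 and TPM2 as 2 tropomyosins with fold changes of opposite sign, whose windows held none of the 3 motifs.
ACTG2, chr2:73892758-73893007, plus strand: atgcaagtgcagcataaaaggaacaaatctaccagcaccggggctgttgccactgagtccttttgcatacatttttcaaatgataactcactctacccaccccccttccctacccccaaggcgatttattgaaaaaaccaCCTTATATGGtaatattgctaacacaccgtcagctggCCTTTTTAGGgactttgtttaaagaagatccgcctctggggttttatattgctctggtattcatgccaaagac
ACTA2, chr10:88952774-88953023, minus strand: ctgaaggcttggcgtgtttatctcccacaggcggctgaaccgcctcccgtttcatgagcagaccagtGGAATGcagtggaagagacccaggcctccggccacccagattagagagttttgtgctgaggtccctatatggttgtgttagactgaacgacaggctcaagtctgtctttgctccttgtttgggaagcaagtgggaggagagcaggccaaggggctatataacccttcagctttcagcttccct
MYH9, chr22:36387968-36388217, minus strand: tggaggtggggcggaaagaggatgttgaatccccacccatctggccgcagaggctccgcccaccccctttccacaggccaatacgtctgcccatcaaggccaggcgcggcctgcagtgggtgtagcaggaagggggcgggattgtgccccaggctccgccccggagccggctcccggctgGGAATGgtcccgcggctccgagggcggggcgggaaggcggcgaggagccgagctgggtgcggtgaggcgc
TPM1, chr15:63048239-63048488, plus strand: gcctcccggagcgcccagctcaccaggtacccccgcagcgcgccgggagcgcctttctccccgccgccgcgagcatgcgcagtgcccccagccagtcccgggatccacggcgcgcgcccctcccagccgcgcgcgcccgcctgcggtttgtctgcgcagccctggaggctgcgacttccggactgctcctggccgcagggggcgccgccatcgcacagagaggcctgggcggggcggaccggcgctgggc
TPM2, chr9:35690057-35690306, minus strand: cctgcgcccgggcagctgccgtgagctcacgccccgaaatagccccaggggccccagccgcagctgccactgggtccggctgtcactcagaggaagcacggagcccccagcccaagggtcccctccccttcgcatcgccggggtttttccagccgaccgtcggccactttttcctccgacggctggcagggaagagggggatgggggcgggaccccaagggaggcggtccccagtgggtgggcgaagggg
A match in these letters is a description of the sequence and does not show that a factor binds there.

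Following BRG1 reexpression, 8 of the 10 genes had a higher and 2 a lower fitted level. DESeq2 called 4 genes higher at an adjusted p under 0.05, namely TAGLN, MYH9, MYL9 and TPM1, with fold changes of 1.34 to 1.80. Of the 15991 genes tested, 11.0% were called higher. In pools of cells, more responding cells and more RNA per cell cannot be told apart. No contractile gene was called lower (0 genes by DESeq2, edgeR and limma-voom; 1 at an unadjusted DESeq2 p under 0.05), against 1.84% of genes tested. Among the 11686 genes with a mean of at least 100 normalised counts, which include 8 of the 10, 9.47% were called higher and 2.46% lower. Over the 10 genes the log2 fold changes had a median of 0.45, and over all genes tested one of -0.01.

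The count of calls depended on how the replicates were treated. Without the block edgeR called 1 gene higher, MYH9, and none lower, against 9.57% and 1.02% of its genes. Calls by limma-voom were the same, against 9.31% and 1.19% of genes. In the blocked DESeq2 fit, 5 genes were called higher (TAGLN, MYH9, MYL9, TPM1 and CNN1) against 13.4% of genes, and 1 lower (TPM2) against 6.62%. edgeR with the block called the same 5 genes higher against 13.7% and 0 lower against 5.68%, with 1 gene, TPM2, at an adjusted p of 0.0735. Within replicate numbers, 8 genes were higher in BRG1 in 3 of 3 numbers, and 27.3% of all genes tested were. TPM2 was lower in 3 of 3 numbers, as were 27.4% of all genes tested, and MYH11 was mixed.

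**Figure D1:**
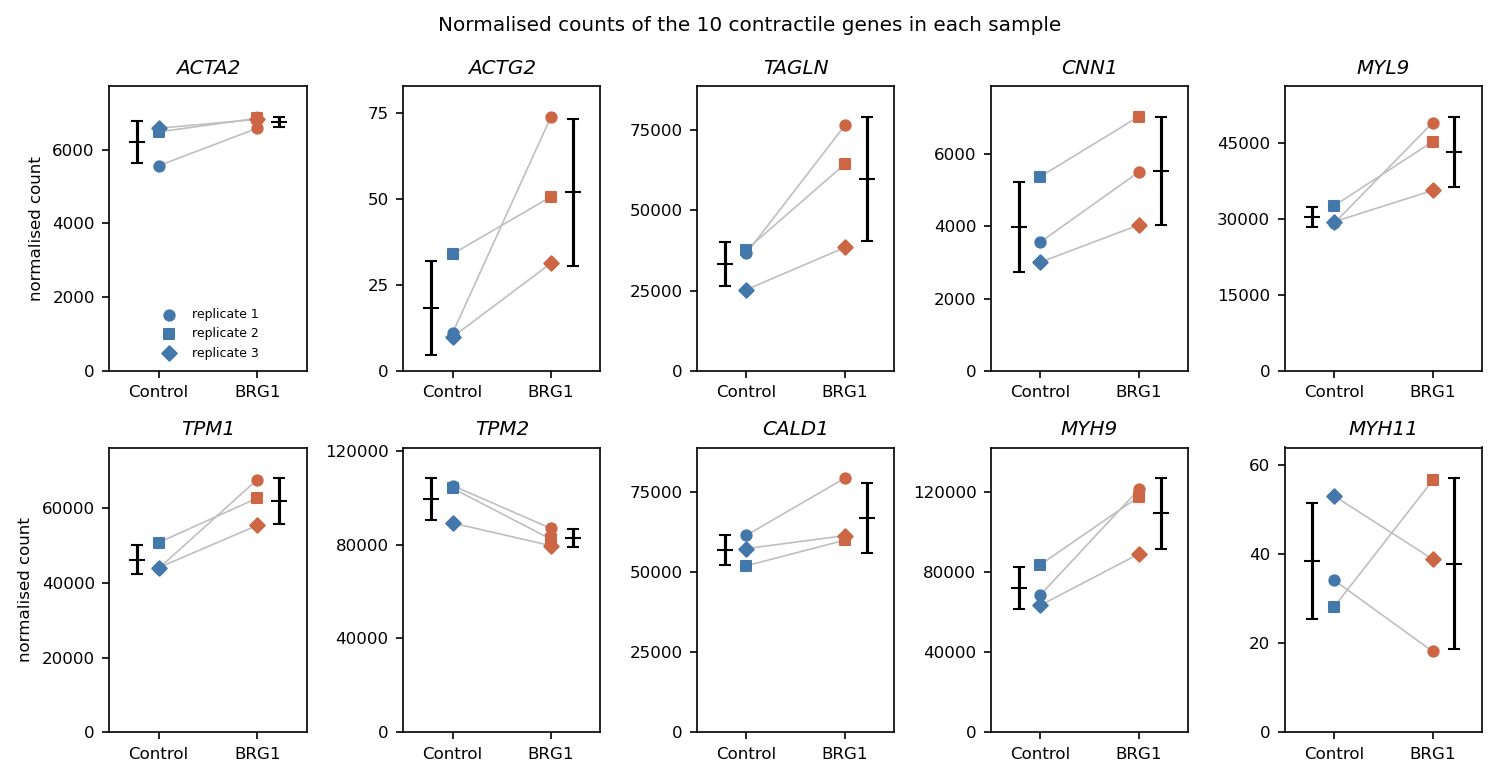
Normalised counts (y axis, from 0, with its own scale in each panel) of the 10 genes in the 3 Control (blue) and 3 BRG1 (orange) samples. Symbols give the replicate number, grey lines join samples with the same number, and black bars are the mean and SD of each group. TAGLN, MYL9, TPM1 and MYH9 were higher in every BRG1 sample than in every Control sample, TPM2 was lower in every one, and the other 5 genes overlapped.

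The 2 smooth muscle actins were far apart in level. ACTA2 (chromosome 10, 88935074 to 88991339, minus strand of GRCh38) had 5562, 6482 and 6580 normalised counts in Control samples 1 to 3 and 6579, 6847 and 6821 in BRG1 samples 1 to 3. The groups met at their edges, where BRG1 sample 1 lay just under Control sample 3. Its log2 fold change was 0.12 ± 0.13 (SE; DESeq2 adjusted p 0.725), and the 95% interval of the fold ran from 0.911 to 1.30. Other genes share 26.3% of the 78-base windows of the main ACTA2 transcript, all through the antisense gene ACTA2-AS1, whose reads cannot be told apart in libraries without strand.

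ACTG2 (chromosome 2, 73892314 to 73919865, plus strand) was near the limit of detection. It had 11.0, 34.0 and 9.84 normalised counts in Control and 74.0, 50.7 and 31.3 in BRG1 samples 1 to 3. Control sample 2 was above BRG1 sample 3, so the groups overlapped, although each BRG1 sample was above the Control sample of its number, by 6.75, 1.49 and 3.18 times. The log2 fold change of 1.53 ± 0.65 (SE) was the largest of the 10 genes and was not called, with a DESeq2 adjusted p of 0.112, or 0.0748 with the block. Without Control replicate 2 it was called, at 2.34 on the log2 scale (DESeq2 adjusted p 0.00435). The CArG boxes shown above belong to this gene.

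Among all 6 actin genes the 2 smooth muscle actins were minor. Per kilobase of the main transcript, ACTA2 made up 1.62% ± 0.176 of the summed actin level in Control against 1.80% ± 0.242 in BRG1 samples (SD, n = 3), and ACTG2 0.00428% ± 0.00321 and 0.0120% ± 0.00365. The cytoplasmic actins made up nearly all of the rest. The share of ACTB was 50.4% ± 3.12 in Control and 57.1% ± 1.52 in BRG1 samples, and that of ACTG1 48.0% ± 3.30 and 41.0% ± 1.75 (SD, n = 3). For ACTB, ACTG1 and ACTG2 the shares of the groups did not overlap, which gives an exact permutation p of 0.1, the smallest that 3 samples against 3 allow (two-sided; 0.170 adjusted over 17 shares of actins, tropomyosins, calponins and myosin heavy chains).

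Of the actin-binding genes, TAGLN had the largest fold change. TAGLN (chromosome 11, 117199370 to 117207464, plus strand), an early marker of smooth muscle, had 36669, 37787 and 25335 normalised counts in Control and 76555, 64470 and 38485 in BRG1 samples 1 to 3. BRG1 sample 3 lay just above the highest Control sample, whereas BRG1 samples 1 and 2 were well above. DESeq2 fitted a log2 fold change of 0.85 ± 0.28 (SE; DESeq2 adjusted p 0.0252). The call was not made by edgeR (adjusted p 0.0963) and was lost without any 1 of BRG1 replicates 1 and 2 and Control replicates 1 and 3, where DESeq2 adjusted p ran from 0.0656 to 0.203. Within replicate numbers the fold was 2.09, 1.71 and 1.52. With the block the adjusted p was 3.1e-11 by DESeq2 and 0.00154 by edgeR.

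The TAGLN value has a limit from sequence overlap. Other genes share 82.3% of the 78-base windows of its main transcript, mostly an unnamed locus and PCSK7, which lies on the opposite strand, and the division of those reads rests on salmon's model. PCSK7 itself had 4312 to 4676 normalised counts in Control and 4512 to 6515 in BRG1 samples, log2 fold change 0.29 (DESeq2 adjusted p 0.387).

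CNN1 (chromosome 19, 11538767 to 11550323, plus strand), which inhibits the myosin ATPase on actin, differed more between replicate numbers than between groups. It had 3558, 5368 and 3004 normalised counts in Control and 5500, 7031 and 4033 in BRG1 samples 1 to 3. Replicate 2 was highest in both groups and replicate 3 lowest in both, so the groups overlapped. The log2 fold change of 0.47 ± 0.29 (SE) was not called without the block (DESeq2 adjusted p 0.374; edgeR 0.396). The fold within numbers was 1.55, 1.31 and 1.34, and with the block the log2 fold change was 0.48 ± 0.10 (SE; DESeq2 adjusted p 5.6e-05; edgeR 0.00769). Per kilobase, the share of CNN1 among the 3 calponins was 13.0% ± 2.08 in Control against 18.3% ± 2.15 in BRG1 samples (SD, n = 3; exact permutation p 0.1), and CNN2 held nearly all of the remainder.

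CALD1 (chromosome 7, 134744252 to 134970729, plus strand), which also restrains myosin on actin, was abundant and was not called. It had 61449, 51962 and 57315 normalised counts in Control and 79315, 59950 and 61351 in BRG1 samples 1 to 3. BRG1 sample 1 stood above all others, and BRG1 samples 2 and 3 lay within the range of Control. The fold was 1.18 with a 95% interval from 0.933 to 1.48 (DESeq2 adjusted p 0.517), and the blocked DESeq2 fit gave an adjusted p of 0.0811. Smooth muscle and non-muscle caldesmon are made from the same gene by splicing and cannot be separated in a table of genes.

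The 2 tropomyosins had fold changes of opposite sign. TPM1 (chromosome 15, 63042620 to 63071915, plus strand) had 43905, 50847 and 44107 normalised counts in Control and 67700, 62752 and 55451 in BRG1 samples 1 to 3. Every BRG1 sample was above every Control sample. The fitted log2 fold change was 0.42 ± 0.15 (SE; DESeq2 adjusted p 0.0325), and edgeR did not call it without the block (adjusted p 0.0602) but did with it (0.0225). The call was also lost without any 1 of BRG1 replicates 1 and 2 and Control replicates 1 and 3 (DESeq2 adjusted p 0.172 to 0.230).

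TPM2 (chromosome 9, 35681992 to 35690056, minus strand) had 105110, 103972 and 89158 normalised counts in Control and 86831, 82233 and 79475 in BRG1 samples 1 to 3. Every BRG1 sample was below every Control sample, by a small margin for Control sample 3. Its log2 fold change was -0.26 ± 0.13 (SE) and was not called without the block (DESeq2 adjusted p 0.222). With the block it was called by DESeq2 (adjusted p 0.0173) and not by edgeR (adjusted p 0.0735). Groups that do not overlap were found for 16.7% of genes tested in the higher and 9.92% in the lower direction.

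The shares of the tropomyosins were compared per length. Per kilobase of the main transcript, TPM1 went from 26.0% ± 1.75 of the 4 tropomyosins in Control to 34.3% ± 0.956 in BRG1 samples, and TPM2 went from 57.1% ± 1.49 to 47.0% ± 1.47 (SD, n = 3; exact permutation p 0.1 for each, the smallest possible, 0.170 adjusted). TPM4 went from 15.0% ± 0.346 to 16.8% ± 0.692 (exact permutation p 0.1), and TPM3 held 1.93% ± 0.0671 and 1.87% ± 0.230 (exact permutation p 0.9). The main transcripts were used for length, and isoforms of other length would shift these shares.

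**Figure D2:**
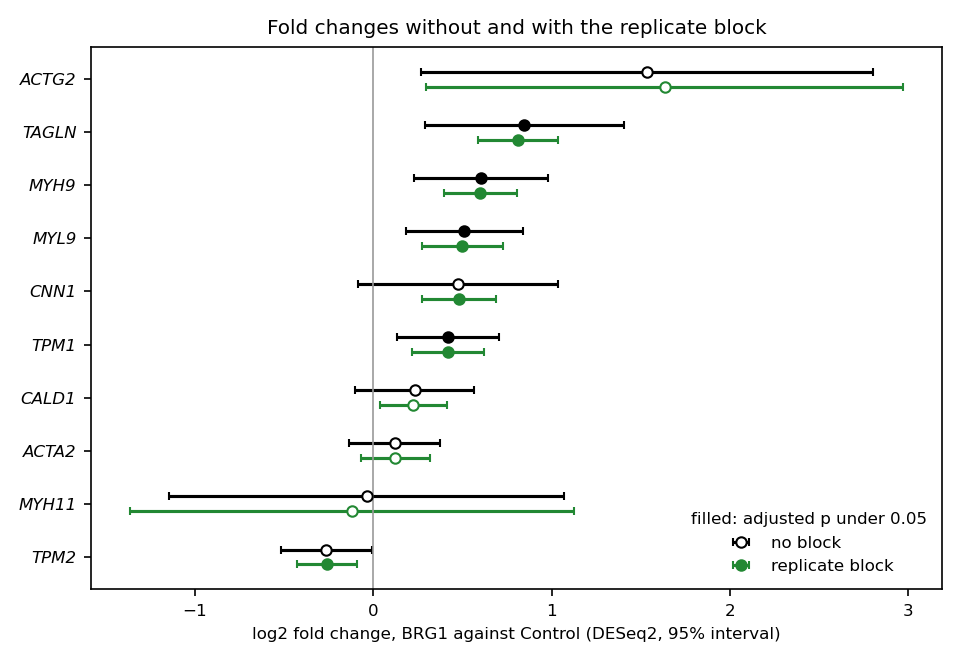
DESeq2 log2 fold changes (x axis) of the 10 genes, BRG1 against Control, without (black) and with (green) the replicate block. Bars are 95% intervals and filled points have an adjusted p under 0.05. The fits place each gene at nearly the same fold, while the intervals are narrower with the block for 8 genes and wider for ACTG2 and MYH11.

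Of the 3 myosin genes, MYH9 and MYL9 were called higher and MYH11 was near the limit of detection. MYH9 (chromosome 22, 36281280 to 36388010, minus strand) had 68655, 83780 and 63502 normalised counts in Control and 121408, 117775 and 89174 in BRG1 samples 1 to 3. Every BRG1 sample was above every Control sample. DESeq2 fitted a log2 fold change of 0.60 ± 0.19 (SE), and MYH9 was called by DESeq2 (adjusted p 0.0152), edgeR (0.0484) and limma-voom (0.0472). With the block the adjusted p was 2.1e-07 by DESeq2 and 0.00544 by edgeR. The unblocked call was lost without any 1 of BRG1 replicates 1 and 2 and Control replicates 1 and 3 (DESeq2 adjusted p 0.109 to 0.135).

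MYL9 (chromosome 20, 36541497 to 36551447, plus strand) had 29205, 32679 and 29512 normalised counts in Control and 49140, 45375 and 35718 in BRG1 samples 1 to 3. The groups did not overlap, and BRG1 sample 3 was again the lowest of the BRG1 samples. The fitted log2 fold change was 0.51 ± 0.17 (SE; DESeq2 adjusted p 0.0220). edgeR gave an adjusted p of 0.0502 without and 0.0152 with the block. The call was lost when any 1 sample other than BRG1 replicate 3 was left out (DESeq2 adjusted p 0.0529 to 0.165).

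MYH11 (chromosome 16, 15703135 to 15857028, minus strand) had 34.1, 28.1 and 53.0 normalised counts in Control and 18.1, 56.5 and 38.8 in BRG1 samples 1 to 3. The groups overlapped fully, and the 95% interval of the fold ran from 0.453 to 2.10 (DESeq2 adjusted p 0.987), so these counts do not resolve a change within that interval. The sign of the fitted change also differed with the sample left out, being -0.47 when BRG1 replicate 2 was left out and 0.31 when BRG1 replicate 1 was. Per kilobase MYH11 made up 0.0510% ± 0.0220 of the myosin II heavy chains in Control against 0.0351% ± 0.0177 in BRG1 samples (SD, n = 3; exact permutation p 0.5), whereas MYH9 made up 85.5% ± 3.25 and 91.5% ± 1.40 (exact permutation p 0.1). The other non-muscle heavy chains, named after their values were seen, were not called. MYH10 had 8227 to 10639 normalised counts in Control and 7188 to 8252 in BRG1 samples (log2 fold change -0.32, DESeq2 adjusted p 0.235), and its share was 11.4% ± 2.62 and 6.47% ± 1.42 (exact permutation p 0.1). MYH14 stood at -0.05 on the log2 scale (DESeq2 adjusted p 0.959). Other genes share 9.04% of the 78-base windows of the main MYH11 transcript, mostly NDE1 on the opposite strand. NDE1 had 1380 to 1738 normalised counts over the 6 samples.

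Set among all genes, the 10 genes spanned a wide range of levels. TPM2, MYH9, CALD1, TPM1, TAGLN and MYL9 lay at the 99.1 to 99.8 percentile of mean normalised count, ACTA2 and CNN1 at the 91.9 and 87.8 percentile, and MYH11 and ACTG2 at the 20.3 and 19.8 percentile of the genes tested. Together the 10 genes took 0.684% to 0.787% of all estimated counts in Control and 0.836% to 1.07% in BRG1 samples.

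**Figure D3:**
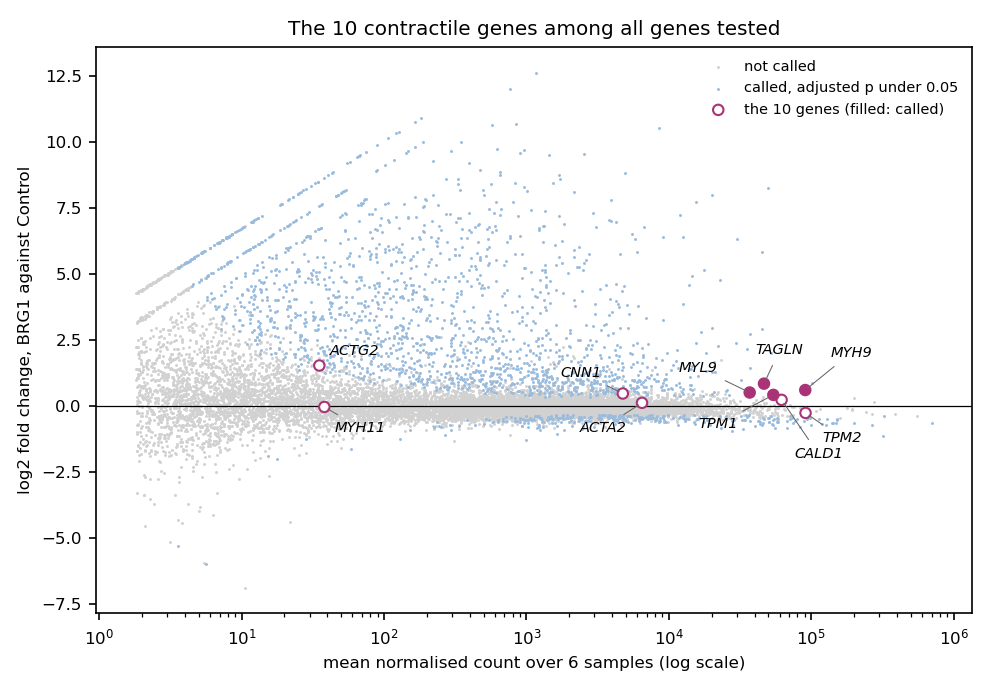
Log2 fold change (y axis) against mean normalised count over 6 samples (x axis, log scale) for the 15991 genes with a DESeq2 adjusted p, with the 10 genes ringed in purple and filled where called. The 4 called genes, TAGLN, MYH9, MYL9 and TPM1, lie at high counts with log2 fold changes of 0.42 to 0.85.

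The replicates of a group were not alike in these genes. BRG1 sample 3, the shallowest library, was the lowest BRG1 sample for ACTG2, TAGLN, CNN1, MYL9, TPM1, TPM2 and MYH9. Its SMARCA4 level of 78589 normalised counts was close to the 79075 of BRG1 sample 2. Without BRG1 replicate 3, DESeq2 called the same number of genes higher (4), and the log2 fold change of TAGLN was 1.09. Control sample 3 was likewise the lowest Control sample for TAGLN, CNN1, TPM2, MYH9 and ACTG2.

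Smooth muscle identity was checked with its other markers. Of 12 further smooth muscle markers, DESeq2 called 1 higher and 0 lower (edgeR also 1 and 0), beside 11.0% and 9.57% higher among all genes tested. The median log2 fold change was 0.32 over the 11 tested. The 1 gene was DES (desmin, the intermediate filament of muscle), which was at 0 counts in all 3 Control samples and had 66.7, 34.1 and 26.9 normalised counts in BRG1 samples 1 to 3, at least 13.5-fold higher against a floor of 3 counts per library. LMOD1, which nucleates actin filaments in smooth muscle, had 10.6 to 19.5 normalised counts in Control and 24.1 to 49.3 in BRG1 samples (log2 fold change 1.29, DESeq2 adjusted p 0.120). MYOCD, the smooth muscle cofactor of SRF, had 0.00 to 7.57 and 3.63 to 8.96, and CASQ2 was at 0 in all 6 samples. Thus TAGLN, CNN1, ACTA2 and SMTN were well expressed in both groups, with SMTN at 3159.7 ± 262 in Control (SD, n = 3), while MYH11, ACTG2, DES, LMOD1 and MYOCD were low or near 0. The summed level of the 12 genes was 49780 to 52917 in Control and 40752 to 46876 normalised counts in BRG1 samples.

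SRF and its cofactors were then compared, since they regulate many of the 10 genes. Of 7 genes, 0 were called in either direction by DESeq2 or edgeR without the block. Among all genes tested, DESeq2 called 11.0% higher and 1.84% lower, and edgeR 9.57% and 1.02%. In the list 1 gene was higher and 1 lower at an unadjusted DESeq2 p under 0.05, and the median log2 fold change was -0.02. SRF had 16597, 16606 and 9780 normalised counts in Control and 11495, 13575 and 8116 in BRG1 samples 1 to 3, within the spread between samples (log2 fold change -0.37, DESeq2 adjusted p 0.527). It was lower in 3 of 3 replicate numbers, and with the block it was called lower by DESeq2 (adjusted p 0.00252) and edgeR (0.0301). ELK1, another SRF partner, was the other gene that the block called lower (adjusted p 0.0107 by DESeq2 and 0.0376 by edgeR). Over all genes the blocked fits called 6.62% lower by DESeq2 and 5.68% by edgeR. The cofactors MRTFA, listed as MKL1 (log2 fold change 0.35, adjusted p 0.222 by DESeq2), and MRTFB, listed as MKL2 (-0.02, adjusted p 0.982), were not called.

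In the other actin and thin filament genes, DESeq2 and edgeR each called 2 of 14 higher and 0 lower, beside 11.0% and 9.57% higher among all genes tested. The median log2 fold change was 0.17 over the 12 tested. TAGLN2, the transgelin of non-muscle cells, rose from 796 to 922 normalised counts in Control to 7082, 4791 and 2436 in BRG1 samples 1 to 3 (5.64-fold; DESeq2 adjusted p 1.4e-11). The fitted fold of TAGLN2 was larger than that of TAGLN, and the difference between the 2 genes was not tested. TMOD1, which caps the slow-growing end of actin filaments, rose 2.45-fold (DESeq2 adjusted p 0.000122). ACTB had 247481 to 268738 normalised counts in Control and 263492 to 315994 in BRG1 samples (DESeq2 adjusted p 0.570), and ACTG1 stood at -0.24 on the log2 scale (adjusted p 0.506 by DESeq2; with the block 0.0337, and 0.0877 by edgeR).

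Of 17 genes of myosin II and its regulators, DESeq2 called 2 higher and 0 lower, and edgeR 1 and 0. Among all genes tested, DESeq2 called 11.0% higher and 1.84% lower, and edgeR 9.57% and 1.02%. The median log2 fold change of the list was 0.07. MYLK, the kinase that phosphorylates MYL9, rose from 145, 175 and 147 normalised counts in Control to 4049, 2258 and 1170 in BRG1 samples 1 to 3, or 27.9, 12.9 and 7.97 times within numbers (DESeq2 adjusted p 3.0e-22; edgeR 0.000918). PPP1R14A, an inhibitor of myosin phosphatase, rose 1.95-fold (DESeq2 adjusted p 0.00179; edgeR 0.0503). The abundant light chain genes MYL6 and MYL12B had fold changes on the log2 scale of 0.11 and 0.01 (DESeq2 adjusted p 0.762 and 0.987). With the block DESeq2 called 5 higher, adding RHOB, RHOC and PPP1R12B, which were chosen after their values were seen. edgeR with the block called 3 (MYLK, PPP1R14A and RHOB). Over all genes the blocked fits called 13.4% higher by DESeq2 and 13.7% by edgeR.

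Actin crosslinkers and focal adhesion genes tie actin filaments to each other and to the membrane. Of 25 genes, DESeq2 and edgeR each called 7 higher and 0 lower, beside 11.0% and 9.57% higher among all genes tested, and the median log2 fold change was 0.46. FHL1, a LIM protein of muscle, LIMA1, which bundles actin, and PDLIM1, which binds alpha-actinin, had log2 fold changes of 2.15, 1.98 and 1.80. FHL1 rose from 876 to 1183 normalised counts in Control to 6839.6, 4602 and 2429.9 in BRG1 samples 1 to 3. The called genes also included ACTN1, ACTN4 and PARVA, whereas the abundant FLNA and VCL had log2 fold changes of 0.29 and -0.07 (DESeq2 adjusted p 0.499 and 0.880). The blocked fits gave 14 higher and 2 lower genes (DESeq2) or 11 higher and 1 lower (edgeR). Among all genes they called 13.4% and 13.7% higher and 6.62% and 5.68% lower. The lists were not tested against each other.

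Markers of other contractile and stromal cells were counted beside these genes. Of 13 pericyte and fibroblast markers, DESeq2 and edgeR each called 3 higher and 0 lower, beside 11.0% and 9.57% higher among all genes tested. The 3 were the receptors PDGFRB (log2 fold change 5.46) and PDGFRA (3.40) and RGS5 (0.92). The summed level of the list ran from 10863 to 15078 normalised counts in Control and from 10461 to 14711 in BRG1 samples, so the groups overlapped. Most of that sum came from COL3A1 and NOTCH3, with means of 5566 and 5331 in Control and 5407 and 4131 in BRG1 samples, so it says little of the called genes. PDGFRB had 3.52 to 4.54 normalised counts in Control and 254, 175 and 92.5 in BRG1 samples 1 to 3. Of the rest, named after their values were seen, DCN and LUM were expressed in both groups (211 to 623), and THY1 and MCAM were at 0.00 to 15.0. Of 22 striated muscle markers, DESeq2 called 7 of the 15 tested higher and 0 lower, and edgeR called 4 and 0. The shares called higher among all genes tested were 11.0% and 9.57%. DESeq2 also called 4 higher and 0 lower without Control replicate 3 or BRG1 replicate 1 or 2. Over all genes those fits called 1516, 1350 and 1370 higher of 15873, 16150 and 16178 tested. By fitted fold the leading genes were the cardiac troponin gene TNNT2 and the light chain genes MYL7, MYL4 and MYL3. Against the same floor MYL7 was at least 13.6-fold higher, and MYL3, at 0 in Control and 20.3, 6.65 and 4.48 in BRG1 samples 1 to 3, at least 3.33-fold. TNNT2 went from 2.44, 4.69 and 4.54 normalised counts in Control to 1813, 800 and 388 in BRG1 samples 1 to 3 (log2 fold change 7.98, SE 0.66; DESeq2 adjusted p 4.6e-32). The other called genes were TNNC1, at 72.7 to 109 in Control and 1510, 994 and 582 in BRG1 samples, and the skeletal heavy chains MYH1 (mean 69.8 and 203, DESeq2 adjusted p 0.0114) and MYH2 (423 and 629, DESeq2 adjusted p 0.0211), which edgeR did not call. The muscle regulators MYOD1 and MYOG and the cardiac heavy chains MYH6 and MYH7, named after their values were seen, were at 3 estimated counts or fewer in every sample. The summed striated list ran from 7524 to 10086 in Control and from 9434 to 11584 in BRG1 samples, and much of it was TNNT1 (mean 7508 and 6250, DESeq2 adjusted p 0.726), so it does not follow the called genes. The part of any other cell type in the changes of the 10 genes was not tested.

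**Figure D4:**
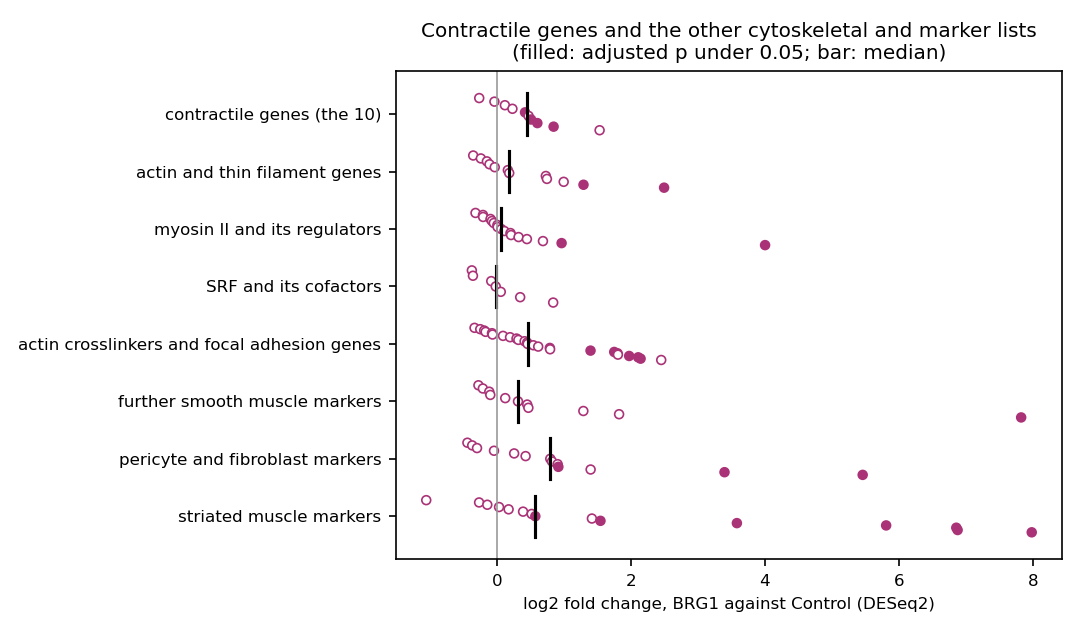
DESeq2 log2 fold changes (x axis), BRG1 against Control, of the 10 contractile genes and of the tested genes of the 7 other lists, 1 point a gene, filled where the adjusted p was under 0.05, with a bar at each median. The 10 genes lie between -0.26 and 1.53, while single genes of the other lists, such as MYLK and TNNT2, lie far to the right; DES and other genes at 0 in Control are at fitted values that are no bounds.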

How the data were processed

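RNA-seq of 3 Control and 3 BRG1 samples of COV434 cells was analysed. Libraries were unstranded, made from 500 ng of RNA and sequenced as read pairs of 78 bases. The deposited table holds length-scaled estimated counts per gene, which the authors made with salmon and tximport on hg38 with GENCODE v24 annotation, and the submitters' processing notes name FastQC 0.11.5, STAR 2.5.3a, Salmon 0.8.2 and DESeq2 1.22.2. Estimated counts were rounded to integers before each fit. Totals were 29699741 to 63613710 per sample. Of 19899 genes, 18096 had a count and 15991 an adjusted p.

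Groups were compared with DESeq2 1.42.0 in R 4.3.3 (Wald test, median-ratio size factors, independent filtering, no covariate), the tool that the study names without its settings, and genes were called at a Benjamini-Hochberg adjusted p under 0.05 over all genes tested. edgeR 4.0.16 (quasi-likelihood test, TMM) and limma 3.58.1 (voom) were alternatives, as were other scalings, filters, a threshold of 0.01, each sample left out and the replicate number as a block. The numbers pair the samples: over 11686 genes with a mean of at least 100 normalised counts, deviations from the group means correlated at 0.522 to 0.614 between same-numbered samples and at -0.523 to 0.0734 between others. The labels do not say what a number shares. The scripts were tested on simulated data that held no effect of the replicate number, so the blocked fits were not tested under such pairing. For some genes edgeR values stand beside those of DESeq2, and for others only DESeq2 values are given. Shares within families used an exact two-sided permutation test, on counts divided by the length of the main GENCODE 44 transcript. Samples were permuted without regard to the replicate number, so the pairing was not used. The shares of a family add up to the whole, so their p-values depend on each other. Gene positions are from that annotation. P-values measure the spread between these samples, which may be partly technical.

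The 10 genes, the 7 other lists and the tests were chosen with earlier results of these data known. Named genes were the 10 genes, SMARCA4, SMARCA2, SRF, MRTFA, MRTFB, MYOCD, ACTB and ACTG1, and from each other list up to 4 called genes without overlap of the groups with the largest log2 fold change and up to 2 with the highest mean count. Other genes named, such as those the block called, were chosen after their values were seen. Some genes that this rule selects are not reported here.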

Additional observations from a re-analysis of the deposited data

How the results depend on the processing

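The direction of 9 of the 10 contractile genes held under all alternatives listed in the processing summary, and MYH11 reversed, to 0.014 with scaling by total counts and to 0.28 and 0.056 in blocked fits without replicate number 1 or 3; with single samples left out it ran from -0.47 to 0.31. Of the 10 genes, edgeR and limma-voom each called 1 higher without the block. In the unblocked DESeq2 fit 0 passed an adjusted p of 0.01, where 1447 of all 15991 genes tested were called higher. Leaving out 1 sample gave 0 to 4 calls, with 0 without Control replicate 1 or 3 or BRG1 replicate 1 or 2. Over all genes these fits called 1350 to 1974 higher of 15873 to 16981 tested. Where 0 of the 10 were called, 1350 to 1548 of all genes were. With the replicate block 1 was lower by DESeq2. Blocked fits without 1 replicate number, chosen after seeing the data, called 4, 5 and 5 higher and 0, 0 and 1 lower; TPM1 had an adjusted p of 0.0504 without number 1. Over all genes, 294 were called lower, against 146 with edgeR, 169 with limma-voom, 1035 and 809 with the block (DESeq2 and edgeR), 166 with total-count scaling, 130 at 0.01, and 117 to 596 with 1 sample left out, the extremes being without BRG1 replicates 2 and 3. The cause was not tested.

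Among the other lists, the DESeq2 block gave 1 lower thin filament gene, 5 higher myosin genes (edgeR 1 without and 3 with the block), 2 lower SRF genes (also 2 with the edgeR block), 14 higher and 2 lower crosslinkers (edgeR block 11 and 1) and 1 lower smooth muscle marker; beyond these and the counts of the 10 genes above and in the report, it changed no count by over 1.5 times. The higher striated markers numbered 4 by edgeR, by limma-voom and at 0.01. Leaving out 1 sample gave 0 to 1 lower for the thin filament, myosin, SRF, crosslinker, smooth muscle and pericyte lists, 0 to 1 higher SRF genes, 7 to 14 higher crosslinkers (14 without BRG1 replicate 3) and 4 to 7 higher striated markers. Low counts limit ACTG2 and MYH11.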
